A study of Mus musculus with 8 samples.

Results

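Hepatic amino acid catabolism was followed through 9 genes whose enzymes open or carry the breakdown of tyrosine, tryptophan, serine, threonine, histidine and proline: Tat, Hpd, Hgd, Fah, Tdo2, Sds, Sdsl, Hal and Prodh. They were found as every non-control probe whose accession in the scanner files maps to one of these symbols, which gave 9 probes for the 9 genes, 1 each, of 55681 probes and 20284 named genes on the array. The arrays compared livers of mice lacking Btg2 (TIS21), a gene of the BTG/TOB family that restrains cell growth, with wild-type livers at 2 stages. The groups were adult knockout liver and adult wild-type liver, each from males aged 10 weeks and fasted for 20 h, and fetal knockout liver and fetal wild-type liver, each a pool of male and female fetuses of embryonic day 13.5 from 1 litter. Only the adult animals were fasted, and only the adult groups were all male, so stage cannot be told apart from feeding state or sex. The sources used here do not give the strain, the design of the knockout allele, or the number of adult mice behind each adult sample. Each group had 2 arrays, which per the series' design text are technical duplicates of 1 RNA sample. The p-values therefore measure array error only and compare 4 RNA samples, not genotypes or ages.

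As background, the liver is the main site where the carbon skeletons of most amino acids are broken down, and fasting turns this carbon towards glucose. Glucocorticoids, glucagon and cyclic AMP are known to raise several of these enzymes, and many of them are switched on around birth, when maternal supply ends. In the tyrosine pathway TAT removes the amino group, HPD makes homogentisate, HGD opens its ring and FAH makes the last cleavage to fumarate and acetoacetate. TDO2 is the hepatic first step of tryptophan breakdown, SDS and the related SDSL deaminate serine and threonine to keto acids, HAL opens histidine breakdown by forming urocanate, and PRODH starts proline oxidation in the mitochondrion.

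RefSeq promoter windows (GRCm38.p6, 250 bases before to 50 after the annotated start) were present for 7 of the 9 genes, Tat, Hpd, Hgd, Fah, Tdo2, Hal and Prodh. Shown here are Tat, the first step of the tyrosine pathway, and the 3 windows that hold TATAAA on either strand, with the match in capitals. Tat lies at chr8:109990186-109990485 on the + strand, Hgd at chr16:37579903-37580202 on the + strand, Tdo2 at chr3:81975679-81975978 on the - strand and Hal at chr10:93488518-93488817 on the + strand. Each sequence is written 5′ to 3′ along its gene.
Tat: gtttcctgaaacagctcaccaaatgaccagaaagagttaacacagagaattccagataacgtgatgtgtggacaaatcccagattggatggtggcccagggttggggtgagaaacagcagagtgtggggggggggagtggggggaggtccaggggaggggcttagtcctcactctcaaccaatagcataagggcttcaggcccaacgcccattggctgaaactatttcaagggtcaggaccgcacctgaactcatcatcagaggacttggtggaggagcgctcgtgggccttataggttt
Hgd: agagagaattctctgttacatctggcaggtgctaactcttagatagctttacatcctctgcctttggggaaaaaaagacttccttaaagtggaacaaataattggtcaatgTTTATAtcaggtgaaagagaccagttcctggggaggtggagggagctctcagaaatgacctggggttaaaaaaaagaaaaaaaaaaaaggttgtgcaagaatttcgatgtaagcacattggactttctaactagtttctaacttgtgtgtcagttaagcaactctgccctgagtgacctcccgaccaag
Tdo2: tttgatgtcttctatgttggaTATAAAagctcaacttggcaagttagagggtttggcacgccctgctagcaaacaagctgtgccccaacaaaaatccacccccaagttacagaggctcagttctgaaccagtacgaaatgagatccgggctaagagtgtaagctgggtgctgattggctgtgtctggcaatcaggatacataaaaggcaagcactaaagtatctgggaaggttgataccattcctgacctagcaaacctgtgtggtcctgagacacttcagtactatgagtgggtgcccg
Hal: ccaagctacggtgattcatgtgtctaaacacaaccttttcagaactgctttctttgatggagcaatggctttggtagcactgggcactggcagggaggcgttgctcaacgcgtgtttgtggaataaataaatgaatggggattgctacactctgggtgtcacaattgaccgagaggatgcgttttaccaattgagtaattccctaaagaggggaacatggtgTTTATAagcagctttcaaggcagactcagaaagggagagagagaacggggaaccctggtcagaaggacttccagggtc
The TATAAA match began 139 bases before the start in Hgd, 229 before it in Tdo2 and 28 before it in Hal. Thus 3 of 7 windows held it, against 13.6% of the 32817 promoter windows of the same length. TGTTCT, a short glucocorticoid receptor motif, was in 0 of the 7 windows (19.0% of all windows). TGACGTCA, the full cyclic AMP response element, was in 0 (1.8%), as was TGACG, a shorter form that lies within the full element (20.8%). GTTAAT, a short HNF1 motif, was also in 0 (7.1%). Each was sought on both strands. Sites outside the windows were not sought, and 7 windows are too few to set these motifs apart from all windows. GC content differed widely among the genes, at 64.3% in Fah, 63.0% in Prodh, 61.3% in Hpd, 53.7% in Tat, 47.7% in both Tdo2 and Hal and 41.0% in Hgd, against a median of 52.7% over all windows. Sds and Sdsl are neighbours on chromosome 5 with 0 annotated genes between them.

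All arrays lay on 1 slide and were scanned once. Their 75th percentile of processed signal, by which each array was scaled, was 170.9 and 169.6 in adult knockout liver, 133.2 and 132.5 in adult wild type, 278.9 and 277.8 in fetal knockout and 333.9 and 324.7 in fetal wild type. Relative signal below means multiples of that percentile. Fetal wild-type array 1 stood apart, with 61.1% of probes well above background against 49.8% on its duplicate. Each group filled 1 column of the slide, so slide column and group cannot be told apart. The Btg2 probe was not well above background on the knockout arrays, with processed signals of 6.259 and 8.019 in adult knockout against 149 and 158.4 in adult wild type. In the fetal pools it read 4.542 and 5.143 in knockout, also not well above background, against 2071 and 2080 in wild type. Btg2 was thus at least 7.62-fold lower in adult knockout (limma adjusted p = 7.9e-07) and at least 99.7-fold lower in fetal knockout (limma adjusted p = 1.4e-06). The sources used here do not say whether that probe lies in the deleted stretch. Of 9 hepatocyte markers on the array, 9 were well above background on both arrays of each adult group and 8 on both arrays of each fetal group; Cps1, a urea cycle enzyme, was not so in fetal liver.

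The first comparison was adult against fetal liver. All 9 genes rose in adult over fetal knockout liver, and all 9 in adult over fetal wild-type liver, where each was at least 31.1-fold higher (limma, adjusted p from 1.5e-12 to 1.8e-06). A call required a Benjamini-Hochberg adjusted p under 0.05 over 14582 genes tested and a difference of at least 2-fold. By that rule 53.3% of genes were called between the knockout stages, 25.8% as higher and 27.5% as lower in adult, and 55.0% between the wild-type stages, 27.4% as higher and 27.6% as lower. Median scaling in place of the 75th percentile gave 2634 genes higher and 5818 lower between the knockout stages and 2509 higher and 6355 lower between the wild-type stages, moved the median of all genes by -0.54 and -0.72, and kept all 9 genes higher in both. The split was 1007 higher and 11469 lower in knockout and 734 higher and 12326 lower in wild type when arrays were scaled to the hepatocyte markers, with all 9 genes again higher in both. The median log2 difference of the 9 genes was 7.44 in knockout and 7.05 in wild type, against -0.03 and 0.00 over all genes tested.

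**Figure D1:**
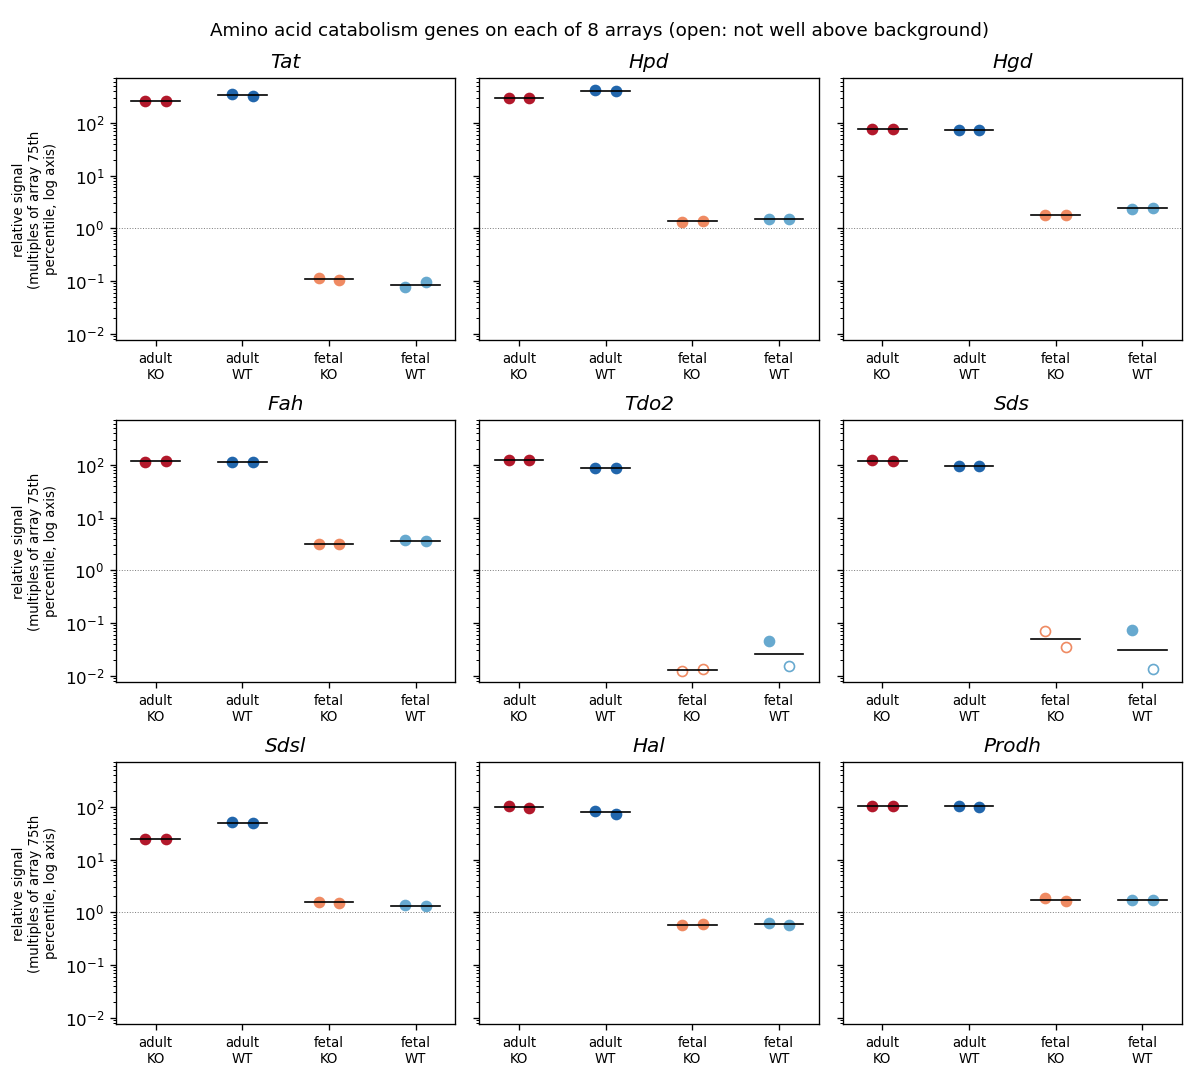
Relative signal (multiples of each array's 75th percentile, log axis) of the 9 genes on each of 8 arrays, with the knockout left of its wild type at each stage. Filled points are well above background, open points are not, and the bar is the mean of the 2 arrays on the log scale. Every adult point lies far above every fetal point, and Tdo2 and Sds have open points in fetal liver.

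Tat, the tyrosine aminotransferase, had relative signals of 265 and 258.6 in adult knockout, 347.6 and 331.2 in adult wild type, 0.1131 and 0.1053 in fetal knockout and 0.0781 and 0.0935 in fetal wild type. The adult arrays were all high and the fetal ones all far below the 75th percentile, though well above background. On the fetal arrays its processed signals, 26.08 to 31.55, stood beside array medians of 20.8 to 29.7. Tat was 2399-fold higher in adult than in fetal knockout (log2 difference 11.23 ± 0.08 SE, limma adjusted p = 1.6e-11) and 3970-fold higher in adult than in fetal wild type (11.95 ± 0.08, limma adjusted p = 1.1e-11).

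Hpd, the 4-hydroxyphenylpyruvate dioxygenase, measured 299.2 and 295.1 in adult knockout, 416.9 and 407.5 in adult wild type, 1.332 and 1.383 in fetal knockout and 1.532 and 1.516 in fetal wild type. All 4 groups were separate, with adult wild type on top and fetal knockout lowest. The stage difference was 7.77 ± 0.03 on the log2 scale in knockout and 8.08 ± 0.03 in wild type.

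Hgd, the homogentisate dioxygenase, measured 77.63 and 76.73 in adult knockout, 74.5 and 73.78 in adult wild type, 1.758 and 1.762 in fetal knockout and 2.311 and 2.447 in fetal wild type. Fah, the fumarylacetoacetate hydrolase, measured 114.8 and 120.7 in adult knockout, 113 and 112.8 in adult wild type, 3.115 and 3.123 in fetal knockout and 3.693 and 3.576 in fetal wild type. These last enzymes of the tyrosine pathway were readily detected in fetal liver in both genotypes. On the log2 scale Hgd differed by 5.45 ± 0.03 and Fah by 5.24 ± 0.03 between the knockout stages, and both by 4.96 ± 0.03 between the wild-type stages, the smallest wild-type stage difference of the 9 genes.

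Tdo2, the tryptophan dioxygenase, measured 124.9 and 121.9 in adult knockout and 87.72 and 88.22 in adult wild type. In the fetal pools it read 0.0125 and 0.0133 in knockout, both not well above background, and 0.0449 and 0.015 in wild type, where array 1 alone was well above background. Tdo2 was thus at least 1952-fold higher in adult than in fetal knockout (limma adjusted p = 3.5e-08). Between the wild-type stages the log2 difference was 11.73 ± 0.43 (limma adjusted p = 6.9e-08), and 10.93 without fetal wild-type array 2 or 12.52 without array 1, so that either array moves it by over 1.5 times in fold.

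Sds, the serine dehydratase, had values of 122.6 and 117.8 in adult knockout, 97.4 and 94.04 in adult wild type, 0.0688 and 0.0347 in fetal knockout, not well above background, and 0.0743 and 0.0132 in fetal wild type. In fetal wild type the first value alone was well above background, on the same array 1 that alone showed Tdo2. Sds was at least 1812-fold higher in adult than in fetal knockout (limma adjusted p = 2.2e-06). The wild-type stage difference was 11.58 ± 0.72 on the log2 scale, and 10.33 without fetal wild-type array 2 or 12.83 without array 1.

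Sdsl, the serine dehydratase-like enzyme encoded next to Sds, measured 24.41 and 24.27 in adult knockout, 50.92 and 49.94 in adult wild type, 1.583 and 1.508 in fetal knockout and 1.37 and 1.312 in fetal wild type. Unlike Sds, its probe was well above background on every fetal array. Its stage difference on the log2 scale was 3.98 ± 0.04 in knockout (15.8-fold) and 5.23 ± 0.04 in wild type (37.6-fold).

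Hal, the histidine ammonia-lyase, measured 103.8 and 97.53 in adult knockout, 83.88 and 75 in adult wild type, 0.5688 and 0.5922 in fetal knockout and 0.6358 and 0.567 in fetal wild type. The fetal groups overlapped and the adult groups did not. Prodh, the proline dehydrogenase, measured 106.4 and 104.1 in adult knockout, 104.8 and 100.2 in adult wild type, 1.831 and 1.668 in fetal knockout and 1.718 and 1.72 in fetal wild type, and its genotypes overlapped at both stages. The log2 stage difference of Hal was 7.44 ± 0.07 in knockout and 7.05 ± 0.07 in wild type, and that of Prodh 5.91 ± 0.05 in knockout and 5.90 ± 0.05 in wild type.

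The remaining enzymes of amino acid breakdown moved in the same direction at a smaller median. Of 68 further catabolic genes tested, 63 were higher and 1 lower in adult than in fetal knockout liver, with a median log2 difference of 3.69. The lower one was Bcat2 (-1.03), the branched-chain aminotransferase used mainly outside the liver. Between the wild-type stages 64 were higher and 0 lower, with a median of 3.70, beside the 27.4% of all genes called higher. Scaled to the hepatocyte markers, the counts were 40 higher and 6 lower in knockout and 31 higher and 9 lower in wild type. The largest rises between wild-type stages were those of Mat1a (9.83), which makes S-adenosylmethionine, Aspg (9.54), Gnmt (8.42), which consumes it, Ido2 (at least 106-fold), Gls2 (6.97), the liver glutaminase, and Gpt (6.88), the alanine aminotransferase. Pathway partners of the 9 genes were among those higher. Gstz1, between Hgd and Fah in the pathway, differed by 3.58. Kynu and Kmo, downstream of Tdo2, differed by 6.65 and 5.28. All 3 further histidine enzymes were higher, Uroc1 by 4.90, Amdhd1 by 5.21 and Ftcd by 4.58, and Aldh4a1, the step after Prodh, by 2.17.

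**Figure D2:**
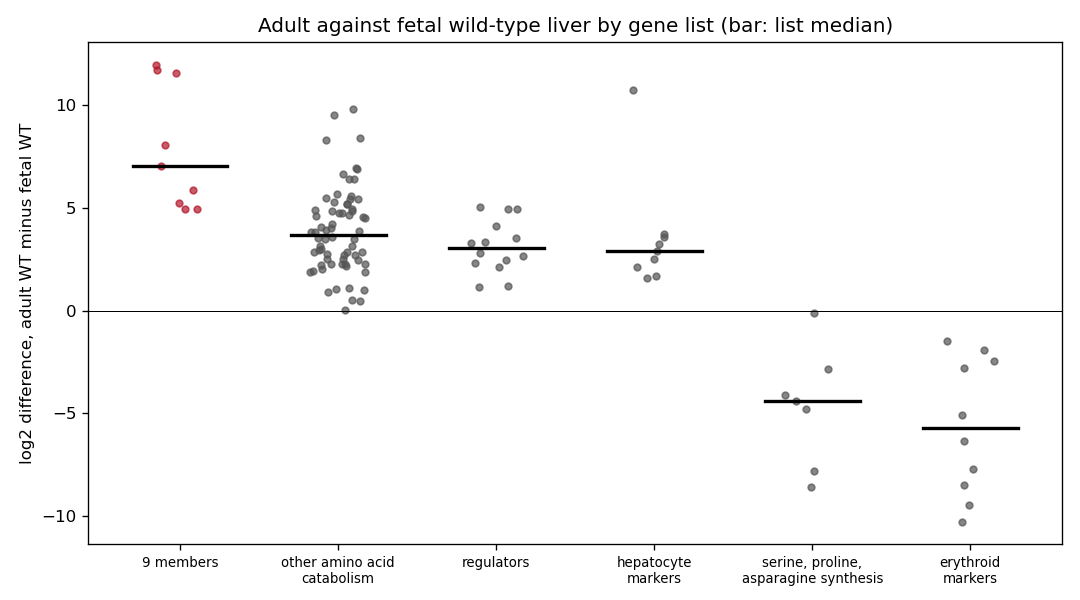
Log2 difference of adult minus fetal wild-type liver for single genes (points) by gene list, with list medians as bars. The 9 genes of the report, at left, have a median of 7.05, the further catabolic genes 3.70, regulators 3.04 and hepatocyte markers 2.91, while the amino acid synthesis genes and erythroid markers lie below 0.

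Genes of the opposite direction of metabolism were lower in adult liver. Of 7 serine, proline and asparagine synthesis genes tested, 6 were lower in adult than in fetal wild-type liver, with a median of -4.38. Pycrl (-0.12) was not called. Of all genes tested 27.6% were called lower, with a median of 0.00. Phgdh, the first step of serine synthesis, differed by -8.60 and Psat1, the next step, by -7.79, each well above background on 1 of 2 adult wild-type arrays. Psph differed by -2.84 and Asns by -4.38, and Aldh18a1 was at least 6.29-fold lower. Regulators of these pathways were higher in adult liver in 14 of 14 cases at both genotypes. Of all genes tested 25.8% were called higher between the knockout stages and 27.4% between the wild-type stages. The wild-type median of the regulators was 3.04, beside 2.91 for the hepatocyte markers. Among the regulators were Klf15 (5.03), a fasting-responsive factor for amino acid breakdown, Gcgr (4.97), the glucagon receptor, and Nr3c1 (1.17), the glucocorticoid receptor.

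Fetal liver is also a blood-forming organ, and markers of other cells moved with stage. Erythroid markers were lower in adult liver in 10 of 10 cases, with summed relative signals of 542 to 546 in adult knockout, 454 to 456 in adult wild type, 3026 to 3054 in fetal knockout and 2453 to 2693 in fetal wild type. Hepatocyte markers were higher in adult than in fetal wild type in 9 of 9 cases, with a median of 2.91 and a range of 1.59 to 10.73. Each of the 9 genes had a wild-type stage difference above that of at least 8 of the 9 hepatocyte markers. In such bulk RNA fewer cells of a type and less RNA per cell cannot be told apart, and the part of cell makeup in the stage differences was not tested.

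The second comparison was adult knockout against adult wild-type liver. Of the 9 genes, 1 was called, Sdsl, which fell, while 7.47% of all genes tested were called, 4.95% as higher and 2.52% as lower. The 9 genes had a median log2 difference of 0.06, against -0.10 over all genes tested, a median that other scalings moved up by 0.12 to 0.20 and scaling to the hepatocyte markers by 0.37. The split of all calls, 722 higher and 368 lower, was 1059 and 299 with median scaling, 914 and 251 with the 75th percentile over detected probes and 1489 and 216 with the hepatocyte markers. With 75th percentile scaling the knockout arrays lay above the wild-type ones for Hgd, Fah, Tdo2, Sds and Hal. With that scaling they lay below them for Tat, Hpd and Sdsl, and overlapped them for Prodh. How many of all genes tested had arrays that separated in this way was not counted. Separation of arrays, here and elsewhere in the text, therefore has no base rate.

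**Figure D3:**
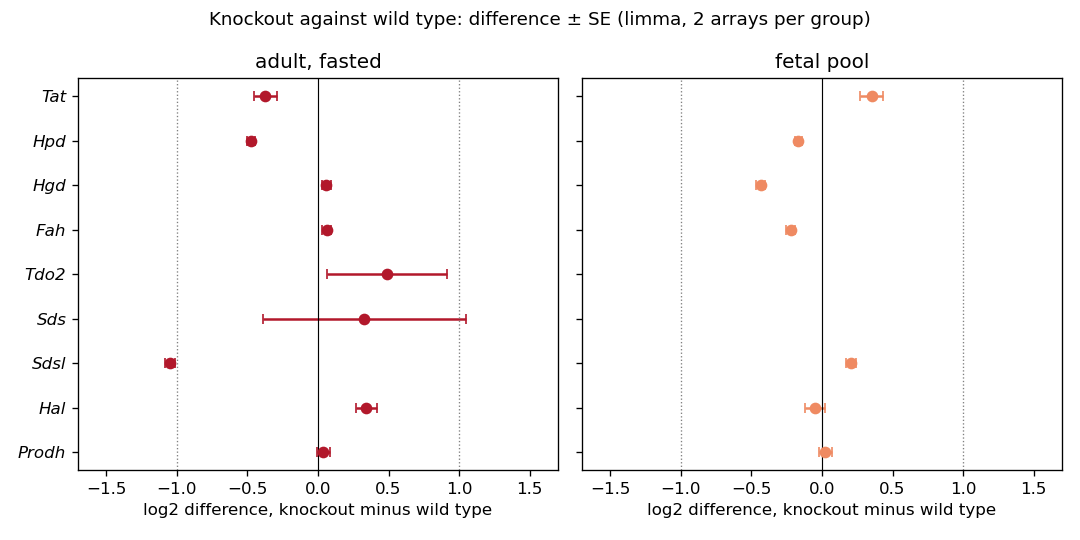
Log2 difference of knockout minus wild type, with its SE from limma (2 arrays per group), for the 9 genes in adult fasted liver (left) and in the fetal pools (right). Dotted lines mark 2-fold. Sdsl in adult liver (-1.05) alone reaches the line. Tdo2 and Sds are not drawn for the fetal pools, where both knockout arrays were not well above background, and their wide bars in adult liver come from a fit that includes those arrays.

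Sdsl, at 24.41 and 24.27 in adult knockout against 50.92 and 49.94 in adult wild type, fell 2.07-fold (log2 difference -1.05 ± 0.04 SE, limma adjusted p = 8.2e-07). The call was lost, through a difference under 2-fold, with quantile normalization (-0.87), median scaling (-0.85), the 75th percentile over probes detected on all arrays (-0.91), the deposited value table (-0.87), normexp background correction (-0.92) and scaling to the hepatocyte markers (-0.68). Sds, its neighbour, stood on the other side of wild type at 0.33 ± 0.72 (limma adjusted p = 0.71).

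In the tyrosine pathway the adult knockout arrays lay below the wild-type ones for Tat and Hpd and slightly above them for Hgd and Fah. Hpd differed by -0.47 ± 0.03 (limma adjusted p = 8.6e-06) and Tat by -0.37 ± 0.08 (limma adjusted p = 0.0060), each under 2-fold. Before scaling the Tat signals were close, with a mean processed signal of 44572 in adult knockout and 45074 in adult wild type. Scaled to the hepatocyte markers, Tat differed by 0.00 and Hpd by -0.10. Hgd and Fah each differed by 0.06 ± 0.03 (limma adjusted p = 0.16 for Hgd and 0.14 for Fah), by 0.20 to 0.27 under 4 other scalings, and by 0.43 each when scaled to the hepatocyte markers.

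Hal was 0.34 ± 0.07 above wild type (limma adjusted p = 0.0050), under 2-fold. Tdo2 differed by 0.49 ± 0.43 (limma adjusted p = 0.37) in the fit of all 8 arrays, whose error for this gene includes its dim fetal arrays. With only the 4 adult arrays the difference was 0.49 ± 0.03 (limma adjusted p = 8.9e-05) for Tdo2 and 0.33 ± 0.04 (limma adjusted p = 0.00073) for Sds, both still under 2-fold. Prodh differed by 0.04 ± 0.05 (limma adjusted p = 0.50). Under 4 other scalings Hal differed by 0.48 to 0.54 and Tdo2 by 0.63 to 0.72. Under the same 4 Sds differed by 0.47 to 0.55 and Prodh by 0.18 to 0.24. Over all alternatives the highest values were 0.72 for Hal, 0.86 for Tdo2, 0.70 for Sds and 0.41 for Prodh, all under 2-fold.

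**Figure D4:**
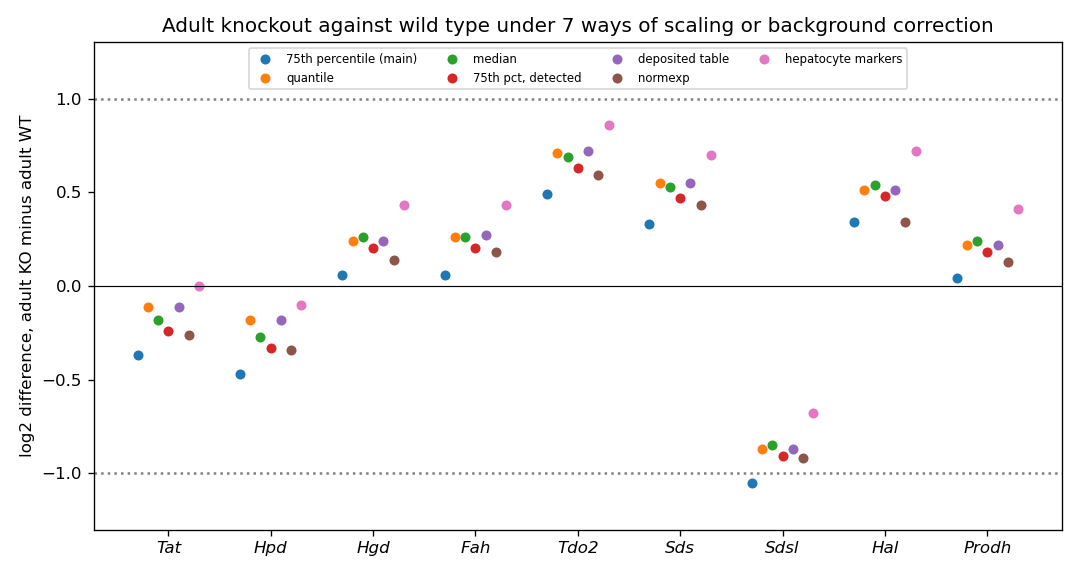
Log2 difference of adult knockout minus adult wild type for the 9 genes under 7 ways of scaling or background correction (colours), with dotted lines at 2-fold. Sdsl passes the line with 75th percentile scaling alone, and Tat runs between -0.37 and 0.00.

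Among the 68 further catabolic genes 4 fell and 0 rose in adult knockout. Of all genes tested 7.47% were called, 4.95% as higher and 2.52% as lower. The median of the 68 was -0.15, against -0.10 over all genes tested. With median scaling, and with the 75th percentile over detected probes, 1 of the 68 rose and 1 fell. With normexp 0 rose and 1 fell, and with the hepatocyte markers 3 rose and 1 fell. With 75th percentile scaling the 4 that fell included Mat1a (-1.44 ± 0.05) and Got1 (-1.09 ± 0.03), the cytosolic aspartate aminotransferase. The others were Oat (-1.07 ± 0.03), the ornithine aminotransferase, and Aadat (-1.05 ± 0.24), a kynurenine aminotransferase. Of the synthesis genes Asns, the asparagine synthetase, fell by 2.46 ± 0.04 on the log2 scale, and Psat1 was at least 1.23-fold lower. The Psat1 bound is not firm, since it averages in an adult wild-type array on which Psat1 was not well above background. None of the 14 regulators was called by limma, and 11 had a limma unadjusted p under 0.05. The share of all genes at that level was not counted, so this and the hepatocyte marker count below have no base rate. Of 9 periportal genes Ctsc rose (1.41) and Asl fell (-1.11), and of 9 pericentral genes Cyp1a2 rose (1.18) and Oat fell. Hepatocyte markers had 0 of 9 called by limma, with 7 at an unadjusted p under 0.05, a median of -0.15 and a range of -0.70 to 0.49. Their summed relative signal was 6369 to 6590 in adult knockout and 8272 to 8285 in adult wild type. Macrophage and Kupffer cell markers rose in 11 of 11 cases, with sums of 363 to 371 in adult knockout and 62.3 to 65.8 in adult wild type, where Timd4 alone was dim on both arrays. Markers of intestinal epithelium summed to 95.2 to 96.4 in adult knockout and 248 to 250 in adult wild type, with 2 of 4 tested called higher and 2 lower; Cdh17, Cdx1, Cdx2 and Muc2 were not well above background in either group. Stellate cell and fibroblast markers were called higher in 3 of 8 cases (Acta2, Col3a1 and Col1a1) and lower in 0. Of the 8, 2 lay below wild type, at -0.41 for the lowest. Their sums were 96.8 to 103 in adult knockout and 121 to 123 in adult wild type. Endothelial markers were called higher in 1 of 8 (Tek) and lower in 0, and 2 lay below wild type, at -0.91 for the lowest. Their sums were 100.3 to 106.8 in adult knockout and 77.3 to 78.7 in adult wild type. The part of these cells in the differences of the 9 genes was not tested.

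The third comparison was fetal knockout against fetal wild-type liver. None of the 9 genes was called by limma, while 1.93% of all genes tested were called, 0.507% as higher and 1.43% as lower. A limma unadjusted p under 0.05 was reached by 6 of the 9. The share of all genes at that level was not counted. This count, and that of the further catabolic genes below, therefore has no base rate. The median over the 9 genes was -0.05, against 0.02 over all genes tested. The knockout arrays lay above the wild-type ones for Tat and Sdsl, below them for Hpd, Hgd and Fah, and overlapped them for Hal and Prodh. The share of all genes whose arrays separated between the fetal pools was not counted either. For Tdo2 and Sds neither knockout array had a signal well above background.

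Hgd, at 1.758 and 1.762 in fetal knockout against 2.311 and 2.447 in fetal wild type, differed by -0.43 ± 0.03 (limma adjusted p = 0.00037). Fah differed by -0.22 ± 0.03 (limma adjusted p = 0.0037) and Hpd by -0.17 ± 0.03 (limma adjusted p = 0.0065). Tat differed by 0.35 ± 0.08 (limma adjusted p = 0.023) and Sdsl by 0.20 ± 0.04 (limma adjusted p = 0.0080). In a fit of only the 4 fetal arrays Tat differed by 0.35 ± 0.2 (limma adjusted p = 0.21). In that fit Hpd, Hgd, Fah and Sdsl had limma adjusted p from 0.00079 (Hgd) to 0.023 (Hpd). Over all alternatives the Tat difference ran from 0.1 to 0.48. The differences of these 5 genes were larger than the gap between duplicates and all under 2-fold. How many of all genes exceeded that gap was not counted.

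Hal differed by -0.05 ± 0.07 and Prodh by 0.02 ± 0.05, within the spread of the duplicates. For Tdo2 and Sds no difference between the fetal pools could be measured, since only fetal wild-type array 1 was well above background. Its duplicate lay 1.59 lower for Tdo2 and 2.50 lower for Sds on the log2 scale.

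Of the 68 further catabolic genes 0 were called by limma between the fetal pools, with 33 at an unadjusted p under 0.05 and a median of -0.07. Pck1, the gluconeogenic enzyme of the periportal list, was at least 1.28-fold lower in fetal knockout. The fetal pools also differed in markers of neighbouring tissues. Epidermal markers were called lower in fetal knockout in 6 of 8 cases, with sums of 8.63 to 8.83 in fetal knockout and 24.0 to 24.1 in fetal wild type, and heart markers were called higher in 5 of 7, with the other two also above wild type, with sums of 280 to 281 in fetal knockout and 110 in fetal wild type. Their part in the differences of the 9 genes was not tested.

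The knockout-minus-wild-type difference was then compared between the stages by an interaction term. It was called for Sdsl, where the adult difference was 1.26 ± 0.05 below the fetal one on the log2 scale (limma adjusted p = 4.0e-06), while 9.76% of all genes tested were called, 6.03% with the adult difference above the fetal one and 3.73% below. That split of 879 above and 544 below was 1093 and 390 with quantile normalization, 822 and 233 with median scaling, 1192 and 337 with the 75th percentile over detected probes and 3030 and 172 with the hepatocyte markers. The Sdsl call was lost with median scaling (-1.08 ± 0.41, limma adjusted p = 0.094) and with the hepatocyte markers (-0.63), under which the fetal Sdsl difference turned to -0.05. With 75th percentile scaling Sdsl lay below wild type in adult knockout and above it in fetal knockout. Tat had the same opposite signs, with an interaction of -0.73 ± 0.12 (limma adjusted p = 0.0015; 0.13 with quantile normalization, 0.59 with median scaling and 0.75 with the hepatocyte markers), and Hgd and Fah the reverse, with 0.49 ± 0.04 and 0.28 ± 0.04. With an adjusted p under 0.05 alone, 6 of the 9 genes (Sdsl, Tat, Hpd, Hgd, Fah and Hal) and 51.8% of all genes tested passed. Tdo2 (limma adjusted p = 0.074) and Sds (limma adjusted p = 0.82) did not pass, and both rest on fetal signals that were mostly not well above background. Tdo2 was called with quantile normalization (1.63), median scaling (1.67), the value table (1.63) and the hepatocyte markers (2.12).

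Genes whose course over the 8 arrays was nearest to each of the 9 were sought among 14578 others, by the root mean square difference of log2 values after subtraction of each gene's mean. The nearest to Fah was Bbox1, of carnitine synthesis (0.048), followed by Cth (0.081), of cysteine synthesis, and to Hgd it was Fah itself (0.102), then Bco2 (0.116). Prodh lay nearest to Aldh1l1 (0.069) and Retreg1 (0.092), and Hal to Ugt2b38 (0.087) and Ugt2b37 (0.094), of the glucuronosyltransferases, near-identical copies that the probes may not separate. Sdsl lay nearest to Glt1d1 (0.097) and Por (0.104), whose adult knockout differences were -1.13 and -1.06. Hpd was nearest to Sec14l4 (0.130) and Gnmt (0.158), and Tat to Fbp1 (0.177), the gluconeogenic bisphosphatase, and Cyp2a4 (0.193). Tdo2 was nearest to Orm1 (0.382) and Cyp2f2 (0.428), and Sds to Cyp3a57 (0.559) and G6pc (0.568), at larger distances that include their dim fetal arrays.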

How the data were processed

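Total RNA (200 ng per sample) was labelled with Cy3 and hybridised to 8 Agilent arrays. Per the file headers, the deposited scanner files hold a background-subtracted processed intensity per spot from Feature Extraction 10.7.3.1. The deposited value table of the authors holds values of linear intensity whose columns share a median of 18.1. The sources do not state its normalization step. Outlier spots (92 to 188 per array) were left out, and 0 spots were saturated. Spots of a probe were averaged, log2 intensity minus each array's 75th percentile was taken, and the probe of highest mean stood for a gene (3651 genes had several). Tested were genes whose probe was detected well above background by both duplicates in 1 group or more, 14582 in all, with limma 3.58.1 (lmFit, eBayes with intensity trend, R 4.3.3) over all 8 arrays in 4 groups, with Benjamini-Hochberg adjustment. The test was checked on simulated data. For a probe dim on both arrays of a group, the fold is a bound: the bright group's mean against, per dim array, whichever is larger of its measured value and the dimmest value that counted as detected on that array. Duplicates correlated at 0.992 to 0.997.

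Named were the 9 genes, Btg2, up to 6 called catabolic genes with the largest rises and falls per comparison, called genes of the synthesis, regulator and zonation lists, and the 2 nearest genes of each of the 9. Pathway partners, the regulators Klf15, Gcgr and Nr3c1, and Cps1 were added after their values were seen. Single values of some list genes are not reported here. The 9 genes and all lists were chosen with earlier results of these data known.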

Additional observations from a re-analysis of the deposited data

Results flagged for a closer look

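With 75th percentile scaling, for 6 of the 9 genes the knockout-minus-wild-type difference itself differed between adult and fetal liver by the interaction term (limma, adjusted p under 0.05), as it did for 51.8% of all genes tested. On the log2 scale the adult difference minus the fetal one was -1.26 for Sdsl, -0.73 for Tat, -0.31 for Hpd, 0.49 for Hgd, 0.39 for Hal and 0.28 for Fah. Of these, Sdsl alone passed 2-fold with that scaling. Scaled to the hepatocyte markers, Hgd (1.11) and Hal (1.01) passed 2-fold, Sdsl (-0.63) did not, and Hpd turned to 0.32. With median scaling none of the 6 passed the test (limma adjusted p from 0.094 for Sdsl to 0.95 for Hpd). The Sdsl value was then -1.08 ± 0.41. The array medians used there differed between duplicates, at 13.6 and 18.4 in adult wild type and 29.7 and 21.7 in fetal wild type. Macrophage and Kupffer cell markers had an interaction above 0 in 11 of 11 cases, with a median of 3.01, and the part of these cells in the differences was not tested.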

How the results depend on the processing

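With 2 arrays of 1 RNA sample per group, no alternative bears on differences between animals. In both stage comparisons each of the 187 values of the 9 genes under the alternatives kept its direction and its call (Tdo2 and Sds were not tested where signal on all 8 arrays was required), and so did 181 of 187 in adult knockout against wild type, where the 6 exceptions are Sdsl. There the count of the 9 genes called was 1, and 0 under quantile normalization, median scaling, the 75th percentile over detected probes, the deposited value table, normexp and scaling to the median of the hepatocyte markers. That last scaling, and the use of all probes whether named or not, were chosen after seeing the data. The marker median itself differed between adult knockout duplicates, at 9.51 and 9.15 on the log2 scale. The further catabolic genes called in adult knockout numbered 4, against 2 (1 higher, 1 lower) under median scaling and under the detected-probe percentile and 1 (lower) under normexp, and 3 to 5 leaving out each array in turn. They numbered 64 between the wild-type stages, against 40 (31 higher, 9 lower) scaled to the hepatocyte markers.

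Between the fetal pools the count of the 9 genes called was 0, against 1 scaled to the hepatocyte markers and 1 at 2-fold with no test, and 0 to 1 leaving out each array in turn. The call was Tdo2 with the hepatocyte markers, at 2-fold, and without fetal wild-type array 2, and Sds without array 1, all on signals mostly not well above background. Leaving out arrays gave ranges of -0.61 to 1.89 for Sds, -0.13 to 0.03 for Hal and -0.04 to 0.09 for Prodh. Values that turned sign there were Prodh (-0.01 with the detected-probe percentile, -0.05 with normexp, -0.23 scaled to the hepatocyte markers, -0.04 without fetal knockout array 1), Tdo2 (0.02 with normexp), Hal (0.01 with normexp, 0.03 without fetal wild-type array 1), Sds (without fetal wild-type array 2) and Sdsl (-0.05 scaled to the hepatocyte markers). For the interaction the count was 1, against 2 with quantile normalization, the value table or 2-fold with no test, 3 scaled to the hepatocyte markers (Hgd, Tdo2 and Hal, without Sdsl), and 1 to 2 leaving out each array, with 2 when either fetal wild-type array was left out. With median scaling it was Tdo2 in place of Sdsl. The further catabolic genes called numbered 6, against 2 with median scaling and 3 with normexp. Leaving out arrays gave interactions of -1.56 to 0.93 for Sds and -0.05 to 0.08 for Prodh. Interactions that turned sign were those of Hpd (0.00 with the value table, 0.32 with the hepatocyte markers), Sds (0.05 with quantile normalization and with the value table, 0.17 with normexp, 0.31 with the hepatocyte markers, 0.93 without fetal wild-type array 2, 0.18 without fetal knockout array 1) and Prodh (-0.02 without adult wild-type array 2, 0.00 without adult knockout array 1, -0.05 without fetal knockout array 2). The cause was not tested.

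Over all genes the calls numbered 1090 in adult knockout (722 higher, 368 lower), 282 between the fetal pools, 7777 and 8018 between the stages in knockout and wild type and 1423 for the interaction. Normexp gave 347, 67 and 472 for adult knockout, fetal pools and interaction. Requiring signal on all 8 arrays gave 501, 26, 5142, 5330 and 696 in the order above, all probes gave 1991, 461, 14274, 15152 and 2767, and the hepatocyte markers gave 1705, 416, 12476, 13060 and 3202. Array numbers follow accession order and pair no samples; with slide row as a replicate block the count of the 9 genes called in adult knockout was again 1 and Sdsl was at -1.05, and no call of the 9 genes changed.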
